A study of Mus musculus with 3 samples.

Results

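The genes described here are 9 genes that mark the medium spiny neurons of the striatum, chosen as a fixed list of symbols: Drd1, Drd2, Adora2a, Ppp1r1b, Pde10a, Rgs9, Tac1, Penk and Pdyn. All 9 were among the 17992 gene symbols counted in each library. Total RNA of adult wild-type C57BL/6 mouse brain was sequenced in 3 libraries, 1 per group. AGNHW stands for Angong Niuhuang Wan, a preparation of traditional Chinese medicine, dosed at 3 mg per g daily in the AGNHW library's mice. The Vehicle library is from vehicle mice with middle cerebral artery occlusion, a stroke model, and the Sham library from sham mice. The occlusion is stated for the Vehicle group and is not repeated for the AGNHW group, and the sources used here do not give the brain region, the time after surgery or the number of mice pooled in a library. With no replicate of any group, no condition could be tested: every difference below is one between libraries, and its 95% interval covers counting error only.

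Medium spiny neurons are the GABAergic projection neurons that make up most of the striatum, a territory that the middle cerebral artery supplies. Those of the direct pathway carry the D1 dopamine receptor (Drd1) and the peptide precursors Tac1 and Pdyn, and those of the indirect pathway carry the D2 receptor (Drd2), the A2a adenosine receptor (Adora2a) and the precursor Penk. Both kinds share DARPP-32 (Ppp1r1b), a phosphatase inhibitor switched on by protein kinase A, the phosphodiesterase Pde10a, which breaks down cAMP and cGMP, and Rgs9, which speeds the shut-off of G proteins. Some of these genes are also active elsewhere, such as Drd2 in the pituitary and the peptide precursors in the hypothalamus and cortex.

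The upstream sequences of 4 members are shown because these genes stood at different ends of the comparisons below: Drd1 and Pde10a were the lowest members in Vehicle against Sham, Drd2 was above 1, and Tac1 alone of those matched held a half-site of the cAMP response element (CRE), the site bound by CREB downstream of protein kinase A. They are RefSeq sequences of build GRCm38.p6, matched by symbol for 6 of the 9 members, written 5′ to 3′ from 250 bases before the annotated start up to the first base of any annotated exon. The bases just after the start were found in 2 of 3 GENCODE transcripts of Drd1 and 0 of 1 of Drd2. For Pde10a it was 2 of 14 and for Tac1 1 of 5. Positions are therefore those of the RefSeq start. Capitals mark GC boxes (GGGCGG) and CRE half-sites (TGACG), on either strand.
Drd1 (chr13:54055706-54055908, minus strand): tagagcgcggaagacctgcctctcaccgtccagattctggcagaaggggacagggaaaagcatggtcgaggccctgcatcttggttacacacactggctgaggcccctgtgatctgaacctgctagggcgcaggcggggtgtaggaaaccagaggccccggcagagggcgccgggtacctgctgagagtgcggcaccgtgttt
Drd2 (chr9:49340153-49340402, plus strand): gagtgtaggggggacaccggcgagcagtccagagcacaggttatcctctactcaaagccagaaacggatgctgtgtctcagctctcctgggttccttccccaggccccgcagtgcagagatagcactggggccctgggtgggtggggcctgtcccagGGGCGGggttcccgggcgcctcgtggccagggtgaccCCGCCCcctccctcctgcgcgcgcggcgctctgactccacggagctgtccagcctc
Pde10a (chr17:8801495-8801692, plus strand): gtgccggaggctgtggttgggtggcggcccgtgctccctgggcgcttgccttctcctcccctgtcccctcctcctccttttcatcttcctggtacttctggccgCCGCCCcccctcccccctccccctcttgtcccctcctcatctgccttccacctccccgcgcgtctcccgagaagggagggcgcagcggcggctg
Tac1 (chr6:7554811-7554878, plus strand): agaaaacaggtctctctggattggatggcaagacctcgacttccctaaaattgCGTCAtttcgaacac
Over the 250 bases before each of 9 annotated starts of the 6 genes, a GC box lay in 5 windows, against 32.7% of 32851 promoters of the same length. In Drd2, GC boxes began 93 and 56 bases before the start. Drd1 had a GC box at its other annotated start, not printed here, beginning 133 bases before it. In Tac1 a GC box began 107 bases before the start, past the end of the printed stretch. The CRE half-site lay in 1 window, that of Tac1, where it began 197 and again 43 bases before the start; 17.8% of all promoters held one. The full CRE (TGACGTCA) and the motifs of AP-1 (TGANTCA) and EGR (GCGNGGGCG) were in 0 of the 9 windows, against 1.55%, 6.75% and 4.70% of all promoters, and TATAAA was in 1, that of Rgs9, against 12.4%. All were searched on both strands, and the half-site lies within the full CRE. These matches describe letters, and binding was not measured.

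The libraries held 18184691 (AGNHW), 15718594 (Vehicle) and 18286151 (Sham) counts. Neuronal transcripts were abundant in all of them: Snap25, a synaptic fusion protein, was at 1652, 1558 and 1843 CPM (counts scaled by library total with TMM factors) in AGNHW, Vehicle and Sham. The Vehicle library stood apart by its pituitary transcripts. Growth hormone (Gh) had 4 counts in AGNHW, 39065 in Vehicle and 0 in Sham, and prolactin (Prl) had 1, 5606 and 0. Of 8 measured pituitary genes, 8 were higher in Vehicle than in Sham, with summed levels of 53.6, 3817 and 39.0 CPM in AGNHW, Vehicle and Sham. Brainstem neuron genes were higher in Vehicle than in Sham for 4 of 5 measured, also after correction, at summed levels of 6.30, 17.9 and 3.56 CPM, and red blood cell genes for 5 of 6, also after correction, at 149, 257 and 123 CPM. Over all genes, 8.66% were higher in Vehicle than in Sham by the size rule given below, or 4.02% after correction. The part of pituitary, brainstem and blood RNA in the members' values was not tested. Ratios also followed transcript length: for Vehicle over Sham, the median log2 ratio was 0.47 in the shortest 10% of transcripts and -0.44 in the longest 10%, and for AGNHW over Vehicle -0.25 and 0.19. A smooth trend on length and GC content was therefore also taken off, and the resulting values are called corrected.

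Together the 9 genes took 0.147% of the counts in AGNHW, 0.144% in Vehicle and 0.117% in Sham. Their summed level was 1461 CPM in AGNHW, 1489 CPM in Vehicle and 1136 CPM in Sham, and most of it was Ppp1r1b. Without Ppp1r1b, the sum of the other 8 had a ratio of 0.913 (0.887 to 0.940) for Vehicle over Sham, 1.16 (1.13 to 1.20) for AGNHW over Vehicle and 1.06 (1.03 to 1.09) for AGNHW over Sham. The summed ratio of all 9 for Vehicle over Sham was 1.31 (1.29 to 1.34), so the direction of the sum depended on that 1 gene. In bulk tissue, fewer cells of a type and less RNA per cell cannot be told apart.

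Per kilobase of the longest coding transcript, Ppp1r1b stood highest in each library, at 421, 478 and 277 CPM per kb in AGNHW, Vehicle and Sham. Penk came next at 147, 135 and 132 CPM per kb, and Tac1 followed at 33.4, 29.6 and 32.3 CPM per kb. Drd1 was lowest, at 7.18, 5.28 and 7.27 CPM per kb. In AGNHW the order between Tac1 and Drd1 was Rgs9 (26.8), Adora2a (22.8), Pdyn (19.2), Drd2 (19.0) and Pde10a (11.9), and the counting intervals of Pdyn and Drd2 overlapped. In Vehicle it was Adora2a (24.9), Rgs9 (23.3), Drd2 (19.7), Pdyn (14.2) and Pde10a (6.74), with Adora2a and Rgs9 overlapping. In Sham it was Adora2a (25.4), Rgs9 (22.3), Drd2 (15.4), Pdyn (14.4) and Pde10a (14.1), and the last 3 overlapped. Below Ppp1r1b and Penk this order depends on the transcript length chosen. With the coding transcript of median length, Adora2a (110, 120 and 122 CPM per kb in AGNHW, Vehicle and Sham) and Pdyn (124, 91.8 and 93.2) stood above Tac1 (59.5, 52.6 and 57.4), and Pde10a was at 29.9, 16.9 and 35.5 CPM per kb.

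**Figure D1:**
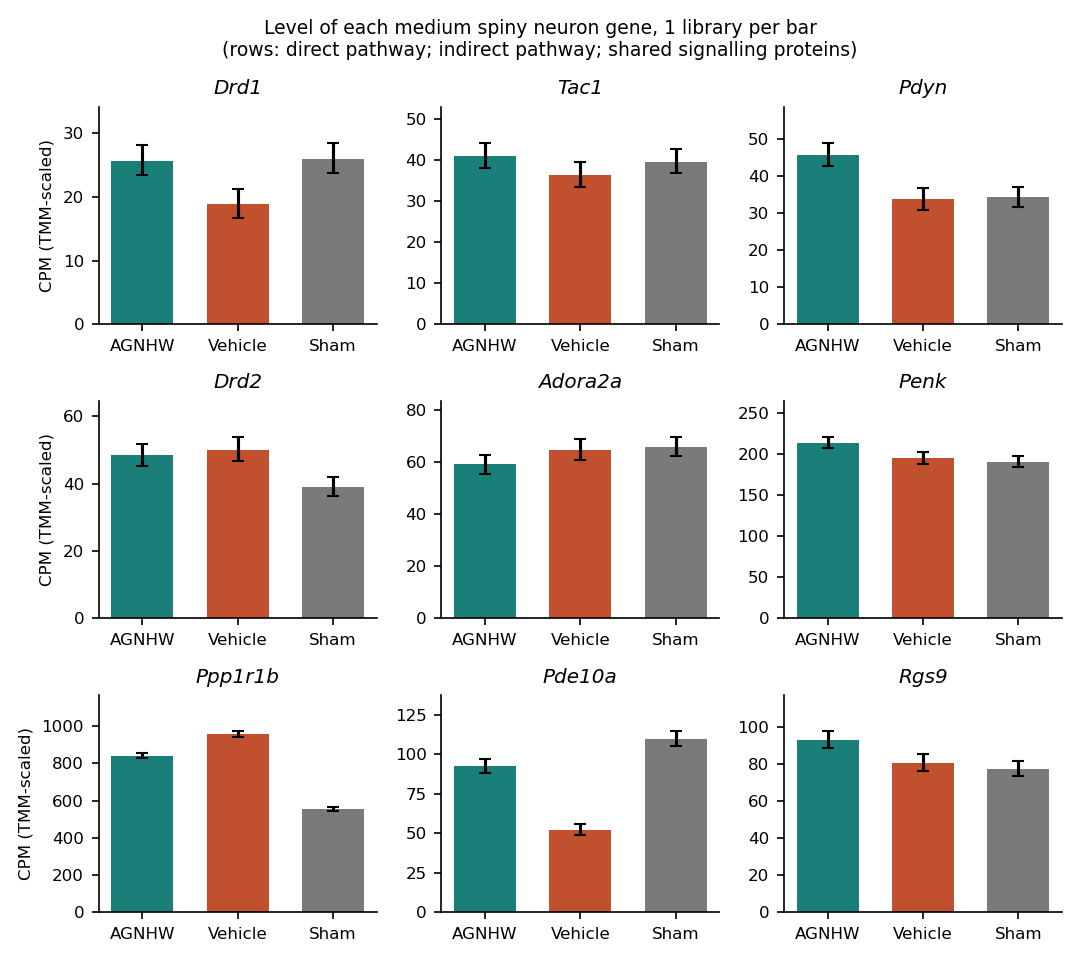
Level in CPM (vertical axes, each starting at 0) of the 9 genes in the AGNHW, Vehicle and Sham libraries. Each bar is 1 library and the error bar its 95% counting interval. Pde10a and Drd1 were lowest in Vehicle, at 52.3 and 18.9 CPM, while Ppp1r1b was lowest in Sham, at 554 CPM.

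Setting Vehicle against Sham shows how the levels of these genes differed between a library from mice with an occluded artery and a sham library. The shared signalling genes parted: Ppp1r1b was higher and Pde10a lower in Vehicle. Drd1 was lower and Drd2 higher, by less than 1.5-fold, and the 3 peptide precursors, Adora2a and Rgs9 stayed within 1.1-fold of Sham. The size rule required a ratio of 1.5 or more in either direction, an interval without 1 and a mean level of 1 CPM or more. By this rule 1 of the 9 was higher, 1 lower and 7 did not pass, against 8.66% of 15558 genes tested higher and 14.2% lower, or 22.8% in either direction. A count so near the background is not a result about the 9 genes as a group. Their median log2 ratio was -0.02, beside 0.01 over all genes tested.

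Among the receptors, Drd1, which couples to the stimulatory olfactory G protein of the striatum, had 287 counts in Vehicle and 489 in Sham, or 18.9 against 26.0 CPM, a ratio of 0.726 (0.625 to 0.842). Drd2, which couples to inhibitory G proteins, had 762 counts in Vehicle and 736 in Sham, or 50.1 against 39.1 CPM, a ratio of 1.28 (1.16 to 1.42). Adora2a, which raises cAMP in the same cells that carry Drd2, had 985 and 1240 counts and a ratio of 0.983 (0.903 to 1.07). So the pair that marks the indirect pathway did not move alike. The corrected ratios were 0.864 for Drd1, with an interval that held 1, 1.06 (0.959 to 1.18) for Drd2 and 0.771 (0.708 to 0.838) for Adora2a. Lactotroph cells of the pituitary also carry Drd2, and the Vehicle library had 5606 Prl counts; the part of these cells in the Drd2 value was not tested.

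The neuropeptide precursors lay close together in Vehicle and Sham. Tac1, the precursor of substance P, had 553 counts in Vehicle and 747 in Sham, a ratio of 0.916 (0.819 to 1.02). Pdyn, the dynorphin precursor, had 515 and 647 counts and a ratio of 0.985 (0.875 to 1.11), and Penk, the enkephalin precursor, 2969 and 3586 counts and a ratio of 1.02 (0.975 to 1.08). For each of these, as measured, no difference was detectable at this depth. The corrected ratios were lower in Vehicle, at 0.818 (0.731 to 0.914), 0.870 (0.773 to 0.978) and 0.786 (0.748 to 0.825) for Tac1, Pdyn and Penk, all inside the 1.5-fold limit. Genes of hypothalamic peptide neurons, cells that can also hold these precursors, passed as higher in Vehicle for 7 of 14 measured and as lower for 0, and after correction for 2 and 1; their summed levels were 312 CPM in Vehicle and 191 CPM in Sham. Over all genes tested 8.66% passed as higher and 14.2% as lower, or 4.02% and 6.96% after correction. The part of the hypothalamic neurons in the peptide values was not tested.

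Of the shared signalling genes, Ppp1r1b had 14554 counts in Vehicle and 10416 in Sham, or 957 against 554 CPM, and was 1.73-fold higher (1.69 to 1.77). Its log2 ratio of 0.79 lay above those of 96.7% of genes tested. The corrected ratio was 1.28, short of the size rule. Pde10a was the reverse case, with 796 counts in Vehicle and 2066 in Sham, or 52.3 against 110 CPM. It was 2.10-fold lower (1.93 to 2.28), with 2.94% of genes tested further down, and 1.62-fold lower (1.49 to 1.76) after correction, so it passed the size rule both ways. Rgs9 had 1227 and 1454 counts, 80.7 against 77.3 CPM, and a ratio of 1.04 (0.967 to 1.13); its retinal and striatal splice forms are not separated in counts per gene.

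After correction, the only member of the 9 that passed was Pde10a, lower in Vehicle, beside 4.02% of 15233 genes with a known length higher, 6.96% lower and 11% in either direction. Of the 9 corrected log2 ratios, 6 were below 0, against 52.0% of all genes, and their median was -0.21, beside -0.01 over all genes. With the coding transcript of median length the median was -0.08.

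**Figure D2:**
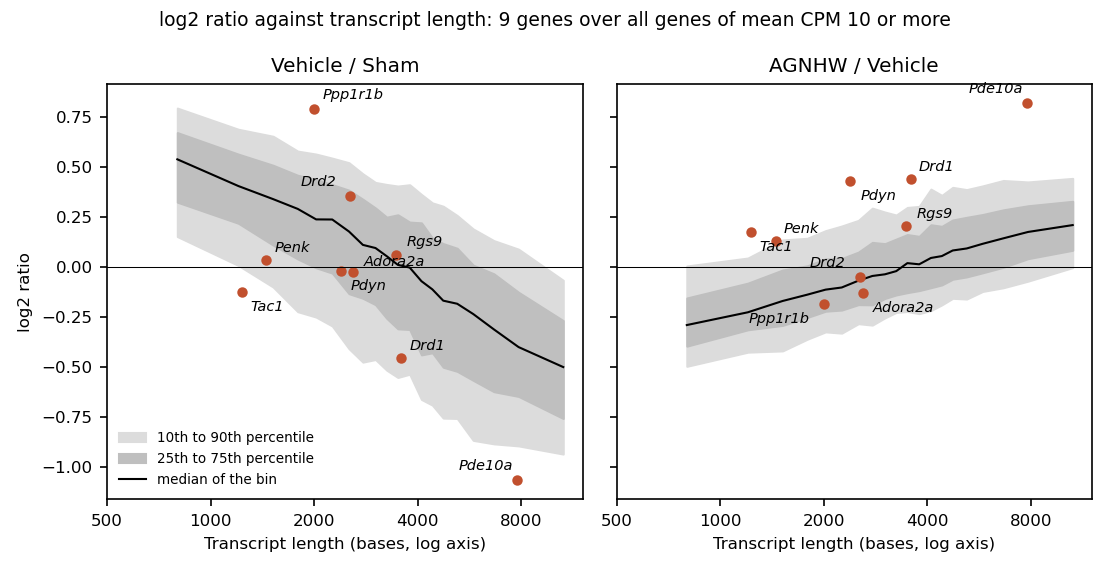
Log2 ratio (vertical axis) against transcript length in bases (horizontal log axis) for Vehicle over Sham and AGNHW over Vehicle. Points are the 9 genes; the line and bands are the median and percentiles of 20 length bins over 9941 genes of mean CPM 10 or more. Outside the 10th to 90th percentile band lie Ppp1r1b (0.79), Pde10a (-1.06) and Tac1 (-0.13) in the first panel, and Pde10a (0.82), Drd1 (0.44), Pdyn (0.43) and Tac1 (0.18) in the second.

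The next comparison sets AGNHW against Vehicle, to see how the library of treated mice differed from that of vehicle mice. Occlusion of the AGNHW mice is not written in their labels. Pde10a was higher in AGNHW, Drd1 and Pdyn were each higher by less than 1.5-fold, and Drd2, Adora2a and Ppp1r1b were within 1.14-fold of Vehicle. By the size rule 1 of the 9 was higher and 0 lower, against 4.01% of genes tested higher, 2.56% lower and 6.57% in either direction. The median log2 ratio was 0.18, beside 0.00 over all genes tested. Both this comparison and the previous one use the single Vehicle library, so a value peculiar to that library enters both with opposite signs.

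Pde10a had 1689 counts in AGNHW and 796 in Vehicle, or 92.5 against 52.3 CPM, and was 1.77-fold higher (1.62 to 1.92). Its corrected ratio was 1.56 (1.44 to 1.70), which also passed, beside 3.21% of genes higher, 1.6% lower and 4.81% in either direction after correction, and 98.5% of genes tested had a lower log2 ratio as measured. Drd1 had 469 counts in AGNHW and 287 in Vehicle, a ratio of 1.36 (1.17 to 1.58), with a corrected log2 ratio of 0.31. Pdyn had 835 and 515 counts and a ratio of 1.35 (1.21 to 1.51), corrected 1.43 (1.28 to 1.60). As measured, these 3 were the members furthest above Vehicle, and 1 of them passed; after correction Penk, at a log2 ratio of 0.32, lay level with Drd1.

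The remaining members were nearer to Vehicle as measured. Rgs9 had 1698 and 1227 counts and a ratio of 1.15 (1.07 to 1.24). Tac1, with 751 and 553 counts, had a ratio of 1.13 (1.01 to 1.26), and Penk, with 3897 and 2969 counts, one of 1.09 (1.04 to 1.15). These 3, from both pathways and the shared set, were slightly higher in AGNHW, beyond counting error and far from the 1.5-fold limit. Ppp1r1b, with 15377 and 14554 counts, was at 842 CPM in AGNHW and 957 CPM in Vehicle, a ratio of 0.880 (0.860 to 0.900). Drd2 had 884 and 762 counts and a ratio of 0.966 (0.876 to 1.07), while Prl had 1 count in AGNHW and 5606 in Vehicle. Adora2a, with 1081 and 985 counts, had a ratio of 0.914 (0.838 to 0.997). Ppp1r1b and Adora2a thus lay below Vehicle, beyond counting error, and for Drd2 no difference was detectable. After correction 9 of 9 ratios lay above 1, against 51.7% of all genes, with a median log2 of 0.25 beside 0.01 over all genes, but those of Drd2, Adora2a and Ppp1r1b had intervals that held 1, and Ppp1r1b was at 0.947 with the coding transcript of median length.

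Against Sham, no difference was detectable in AGNHW for Drd1 and Tac1. This comparison shares the AGNHW library with one of the above and the Sham library with the other. Drd1 was at 25.7 CPM in AGNHW and 26.0 CPM in Sham, a ratio of 0.988 (0.869 to 1.12), and Tac1 at 41.1 and 39.7 CPM, a ratio of 1.04 (0.935 to 1.15). Pde10a was lower, beyond counting error and short of the size rule: at 92.5 CPM in AGNHW and 110 CPM in Sham it had a ratio of 0.842 (0.789 to 0.899) and a corrected ratio of 0.967 (0.906 to 1.03). Above Sham were Ppp1r1b at 1.52-fold (1.48 to 1.56), Pdyn at 1.33 (1.20 to 1.48), Drd2 at 1.24 (1.12 to 1.37), Rgs9 at 1.20 (1.12 to 1.29) and Penk at 1.12 (1.07 to 1.17). Penk was at 0.984 (0.940 to 1.03) after correction. Adora2a was at 0.898 (0.827 to 0.975).

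By the size rule 1 of the 9, Ppp1r1b, was higher in AGNHW than in Sham and 0 were lower, against 3.32% and 5.47% of genes tested and 8.79% in either direction. This call rested on a narrow margin: with plain CPM the ratio was 1.48, and after correction 1.31 (1.28 to 1.34), neither of which passed. After correction 0 of the 9 passed, beside 2.63% of genes higher, 3.35% lower and 5.97% in either direction. The median log2 ratio of the 9 was 0.16, or 0.11 corrected, beside 0.00 and -0.01 over all genes.

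**Figure D3:**
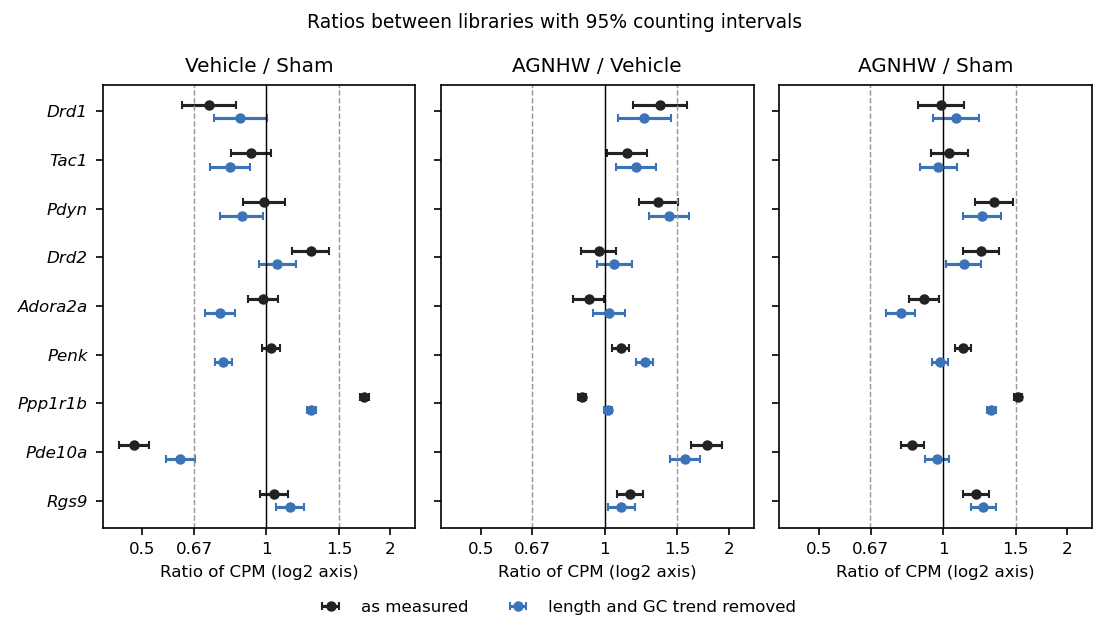
Ratios of CPM (horizontal log2 axis) of the 9 genes between libraries, as measured and with the length and GC trend removed, with 95% counting intervals; dashed lines mark 1.5-fold either way. Pde10a is past 1.5-fold in both forms for Vehicle over Sham (2.10-fold lower, corrected 1.62-fold) and AGNHW over Vehicle (1.77 and 1.56).

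Ratios of counts within a library need no scaling between libraries. Drd1 to Drd2, the receptor pair of the direct and indirect pathways, was 0.531 (0.473 to 0.594) in AGNHW, 0.377 (0.328 to 0.432) in Vehicle and 0.664 (0.591 to 0.746) in Sham. The Vehicle value was thus 1.76-fold lower (1.47 to 2.12) than the Sham value, and the AGNHW value was 1.41-fold above (1.18 to 1.69) the Vehicle value. The precursor pair Tac1 and Penk lay closer together across the libraries: Tac1 to Penk was 0.193 (0.178 to 0.208) in AGNHW, 0.186 (0.170 to 0.204) in Vehicle and 0.208 (0.192 to 0.225) in Sham. The 3 intervals overlap one another. Pdyn to Penk was 0.214 in AGNHW, 0.173 in Vehicle and 0.180 in Sham, higher in AGNHW than in Vehicle by a factor of 1.24 (1.09 to 1.40).

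Summed over Drd1, Tac1 and Pdyn against Drd2, Adora2a and Penk, the direct to indirect ratio was 0.351 (0.333 to 0.369) in AGNHW, 0.287 (0.270 to 0.305) in Vehicle and 0.339 (0.321 to 0.357) in Sham. The Vehicle ratio was 1.18-fold lower (1.09 to 1.28) than that of Sham, and AGNHW was 1.22-fold above Vehicle (1.13 to 1.32). AGNHW over Sham was 1.04 (0.962 to 1.11). With receptors alone, Drd1 against Drd2 and Adora2a, the Vehicle ratio was 1.51-fold lower (1.28 to 1.77) than Sham. A trend on length and GC content was then taken off, a step chosen after the values were seen. The direction of the summed ratio for Vehicle over Sham turned, to 1.03 times that of Sham. With receptors alone the ratio stayed below Sham, at 0.982 times, and was at 1.01 times with the coding transcript of median length. So no direction of the direct to indirect balance between Vehicle and Sham is given by these members. The corrected summed ratio was 1.10 for AGNHW over Vehicle and 1.14 for AGNHW over Sham. For Drd1 to Drd2 the Vehicle value was 1.23-fold lower than Sham after correction and the AGNHW value 1.18 times Vehicle.

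The 4 pairs that follow were chosen after the values were seen. Tac1 to Drd1, both of the direct pathway, was 1.60 in AGNHW, 1.93 in Vehicle and 1.53 in Sham. Penk to Drd2 was 4.41 in AGNHW, 3.90 in Vehicle and 4.87 in Sham, and Adora2a to Drd2 was 1.22 in AGNHW, 1.29 in Vehicle and 1.68 in Sham. Adora2a to Drd2 was 1.30-fold lower (1.14 to 1.49) in Vehicle and 1.38-fold lower (1.21 to 1.57) in AGNHW than in Sham. The most divergent of the 9 pairs compared was Pde10a to Ppp1r1b, at 0.110 (0.104 to 0.116) in AGNHW, 0.0547 (0.0509 to 0.0587) in Vehicle and 0.198 (0.189 to 0.208) in Sham. It was 3.63-fold lower (3.33 to 3.96) in Vehicle and 1.81-fold lower (1.68 to 1.94) in AGNHW than in Sham. This pair joins the lowest and the highest member of Vehicle over Sham, so its size follows from that choice. After correction it was 2.08-fold lower in Vehicle and 1.35-fold lower in AGNHW than in Sham. The longest coding transcripts have 7769 bases for Pde10a and 2001 bases for Ppp1r1b, with 48.3% and 61.0% GC.

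**Figure D4:**
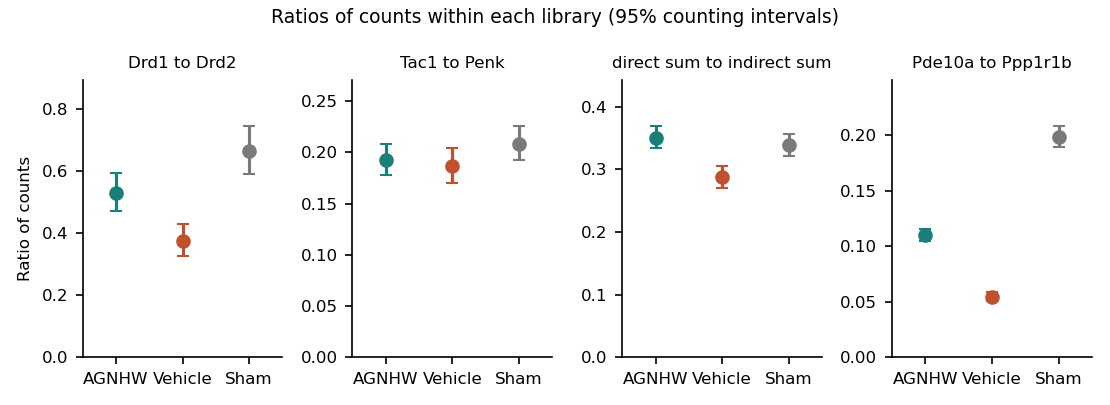
Ratio of the counts of a pair of genes, or of sums of 3 genes, within each library (vertical axes, each starting at 0), with 95% counting intervals. Vehicle is lowest for Drd1 to Drd2 (0.377), for the direct to indirect sum (0.287, where the order of Vehicle and Sham turned after correction) and for Pde10a to Ppp1r1b (0.0547), while Tac1 to Penk runs from 0.186 to 0.208.

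The other striatal projection neuron genes on the lists, 35 besides the members, were all measured. In Vehicle over Sham 1 was higher and 11 were lower, leaving 23 short of the rule, against 8.66% and 14.2% of genes tested. The median log2 ratio was -0.33. After correction 0 of 34 were higher and 8 lower, against 4.02% and 6.96% of genes, and the median was -0.17. Homer1, among the 11, also counts in the list of genes induced by activity. In AGNHW over Vehicle 2 passed as higher and 0 as lower, against 4.01% and 2.56% of genes tested, and the median was 0.24, or 0.17 corrected. In AGNHW over Sham 0 were higher and 3 lower (Gprin3, Cnr1 and Homer1), against 3.32% and 5.47% of genes tested, and the median was -0.13. After correction Gprin3 was still lower. Of 7 further direct-pathway genes, the transcription factors Isl1 and Eya1 were lower in Vehicle than in Sham, Isl1 by 1.69-fold (1.11 to 2.62) and Eya1 by 2.16-fold (1.54 to 3.07). The muscarinic receptor Chrm4 of the direct pathway had 347 counts in Vehicle and 522 in Sham, a ratio of 0.822 (0.716 to 0.944); its corrected log2 ratio of -0.78 passed the rule. Of 5 further indirect-pathway genes, Gpr52, an orphan receptor, had 82 counts in AGNHW, 38 in Vehicle and 111 in Sham, and Gprin3 had 41, 17 and 87; both were lower in Vehicle than in Sham and higher in AGNHW than in Vehicle by the size rule. After correction Gprin3 was lower in Vehicle than in Sham and did not pass for AGNHW over Vehicle, and Gpr52 had no length. Gpr6, an indirect-pathway receptor raising cAMP, had 212, 185 and 196 counts, with a ratio of 1.17 (0.950 to 1.44) for Vehicle over Sham.

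Of 36 partners of these genes in cAMP and G-protein signalling, 0 were higher and 6 lower in Vehicle than in Sham, with a median log2 ratio of -0.22. After correction the counts were 0 and 1, with a median of -0.05. Over all genes tested 8.66% were higher and 14.2% lower, or 4.02% and 6.96% after correction. These counts are therefore not read as a result about the partners. In AGNHW over Vehicle 0 passed either way, against 6.57% of genes tested, and the median was 0.14. Rgs7bp, which anchors Rgs9 at the membrane, was at 135 CPM in AGNHW, 90.4 CPM in Vehicle and 205 CPM in Sham, 2.27-fold lower in Vehicle than in Sham and short of the size rule after correction. Gnb5, the beta subunit that pairs with Rgs9, had a ratio of 1.05 (0.998 to 1.11). The striatal adenylyl cyclase Adcy5, its G protein subunit Gnal and the phosphodiesterase Pde1b had ratios of 1.03, 0.817 and 1.19 for Vehicle over Sham. Pde1b did not show the low value of Pde10a. Another phosphodiesterase, Pde4d, had one of the 3 largest log2 ratios of the list in that comparison, in which 0 partners passed as higher. A low value was therefore not particular to Pde10a.

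Receptors and processing enzymes of the peptides were also counted. Of 8 measured opioid, tachykinin, dopamine and adenosine receptors outside the members, 0 passed in Vehicle over Sham, and 0 in the other 2 comparisons; after correction 1, Oprd1, was lower in Vehicle than in Sham. The delta opioid receptor Oprd1, which binds enkephalin, had 176 counts in AGNHW, 110 in Vehicle and 199 in Sham, and the substance P receptor Tacr1 had 149, 106 and 135. The kappa receptor Oprk1, which binds dynorphin, had 69, 56 and 96 counts, and Oprm1, at 9, 5 and 15, was too sparse to pass the filter of 1 CPM. Of 13 processing and granin genes, 2 were higher and 2 lower in Vehicle than in Sham, and after correction 0 passed either way. As measured, that is 4 of 13, beside 22.8% of all genes tested in either direction, or 11% after correction. For AGNHW over Vehicle and AGNHW over Sham, 6.57% and 8.79% of all genes passed in either direction. Pcsk1, which cuts peptide precursors, had 219 counts in AGNHW, 185 in Vehicle and 446 in Sham. It was 1.95-fold lower in Vehicle than in Sham, and in AGNHW 1.98-fold lower than in Sham, which also passed after correction. Chga, a granule protein that endocrine cells also make, was 1.70-fold higher in Vehicle than in Sham.

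The genes whose course over the 3 libraries was nearest to the members' medians, by the distance between their log2 ratios for Vehicle over Sham and AGNHW over Vehicle, were Zfp598, Kcnk12, Dhx32, Col6a2 and Tpcn1, at distances of 0.008, 0.012, 0.012, 0.015 and 0.016. With 3 libraries such a likeness is common: 164 of 10090 genes of at least 10 CPM lay nearer than Penk, Tac1 or any other member, the nearest of which was at 0.07. The members themselves lay up to 1.22 from their own medians, the place of Pde10a.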

How the data were processed

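Read counts per gene symbol for 3 mouse brain libraries (AGNHW, Vehicle, Sham) were used as the authors deposited them, as whole numbers with no normalisation, per the file headers and values. Bowtie2 2.2.3, TopHat2 2.0.12, HTSeq 0.6.0 and mm9 are named in the submitters' processing notes; for their order, settings and strand handling nothing is given in these sources. No gene had fewer than 21 counts in total, so rarer genes were not analysed here. Reads of overlapping genes and of splice forms cannot be separated. Libraries were grouped by title.

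Counts were scaled with TMM factors of edgeR 4.0.16 in R 4.3.3 (1.00 for AGNHW, 0.968 for Vehicle, 1.03 for Sham). Ratios have 95% exact conditional binomial intervals and ratios of within-library ratios exact odds-ratio intervals, from Python 3.11.15 with scipy 1.17.1; counted reads can be copies of 1 molecule, so both cover counting error only. Log2 ratios used a prior count of 5. The size rule was applied to all 15558 genes of at least 1 CPM. It was also run on simulated counts with planted 2-fold changes and counting error only. That run checked the code and, lacking spread between animals, does not show how the rule performs on these libraries. Length and GC content came from the longest coding GENCODE M21 transcript, found for 17569 of 17992 symbols; a cubic trend in both, with cross terms, fitted to 9941 genes of at least 10 CPM explained 50.1% (Vehicle over Sham), 28.9% (AGNHW over Vehicle) and 40.6% (AGNHW over Sham) of the variance. Alternatives were other scalings (plain CPM, DESeq2 1.42.0, upper quartile, pan-neuronal genes, omitted genes), filters, fold limits and prior counts.

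The members and the 24 lists were chosen with earlier results of these data known. Named genes were the members, fixed defining genes, the 3 of each list with the largest log2 ratios and the 5 nearest genes.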

Additional observations from a re-analysis of the deposited data

How the results depend on the processing

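Of 243 member calls remade under the 9 settings that could change them, 230 stayed on the same side of the size rule. Another 8 fell short of it and 5 came to pass it. In the main setting 1 member was higher and 1 lower in Vehicle than in Sham, and 1 was higher in each of the other comparisons. Most of the 230 were therefore ratios that passed under neither setting, and all 8 losses fell on those few calls. The filters on low values and the prior count cannot change these calls. With the length and GC trend removed, 0 members were higher in Vehicle than in Sham and 0 in AGNHW than in Sham, and the median log2 ratio for Vehicle over Sham was -0.21; with the coding transcript of median length, chosen after seeing the data, the first 2 values were also 0, the median was -0.08, and Pde10a stayed at a ratio of 0.479 for Vehicle over Sham and 1.75 for AGNHW over Vehicle. With plain CPM, 0 members were higher in AGNHW than in Sham. With a 2-fold rule, 0 were higher in any of the 3 comparisons. With a limit of 5 to 4, 2 were higher and 2 lower in Vehicle than in Sham, 3 higher in AGNHW than in Vehicle and 2 higher in AGNHW than in Sham. With receptors alone, the change of the direct to indirect ratio was 0.664 for Vehicle over Sham and 1.45 for AGNHW over Vehicle. The change of the summed direct to indirect ratio with the trend removed was added after seeing the data. It was 1.03, 1.10 and 1.14 for Vehicle over Sham, AGNHW over Vehicle and AGNHW over Sham. With the median coding transcript it was 1.08, 1.09 and 1.16, so the first turned. The cause of these shifts was not tested beyond each setting itself.

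Over all genes, Vehicle over Sham gave 1348 higher and 2207 lower, against 890 and 2836 with plain CPM and 844 and 2908 when scaled to pan-neuronal genes; AGNHW over Vehicle gave 624 and 398, against 808 and 309 and 932 and 259. For Vehicle over Sham the other settings that moved these counts by over 1.5 times gave 613 higher and 1060 lower with the trend removed, 884 and 1370 with the median coding transcript, 710 and 1235 at a mean of 10 CPM or more, 307 and 711 at 2-fold and 3377 and 3747 at 5 to 4. For AGNHW over Vehicle 244 were lower with the trend removed, and the counts were 137 and 73, 175 and 116, and 1732 and 1315 at the other 3 settings. AGNHW over Sham gave 517 higher and 851 lower, against 400 and 510, 119 and 313, 179 and 192, and 1540 and 2266; with the median coding transcript 533 were lower. No paired analysis was possible because each group has 1 library. For the same reason no library could be left out.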

Other observations

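Genes listed for striatal interneurons and for dopamine neurons gave a mixed picture. The brain region is not given, so neither list can be placed in the striatum. Th is on both lists, and Calb2 is also on the thalamus list. Over all genes tested, 8.66% were higher and 14.2% lower in Vehicle than in Sham, or 4.02% and 6.96% after correction. Of 12 striatal interneuron genes, 3 were higher and 2 lower in Vehicle than in Sham, and after correction 0 and 1. In AGNHW over Vehicle 1 of the 12 was higher and 0 lower, against 4.01% and 2.56% of genes tested. This was Chat, which makes acetylcholine in cholinergic interneurons. It had 69 counts in AGNHW, 29 in Vehicle and 50 in Sham, and was 1.98-fold higher in AGNHW than in Vehicle. Other cholinergic genes did not move alike in AGNHW over Sham. Slc5a7 was lower, with 26 against 46 counts, and Slc18a3 higher, with 86 against 52, and neither passed after correction. Over all genes tested 3.32% were higher and 5.47% lower there. Of 9 measured dopamine neuron genes, 4 were higher and 1 lower in Vehicle than in Sham, with or without correction. Brainstem neuron genes moved with them: 4 of 5 were higher in Vehicle, among them the serotonin neuron genes Slc6a4, with 20, 103 and 1 counts in AGNHW, Vehicle and Sham, and Tph2, with 21, 64 and 16. Their part in the dopamine list was not tested. Ddc, the last enzyme of dopamine synthesis, which serotonin neurons also carry, was 2.68-fold higher in Vehicle (2.34 to 3.08), and Th, the rate-limiting enzyme, had 334, 240 and 192 counts in AGNHW, Vehicle and Sham.

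Of 16 GABAergic neuron genes, 0 were higher and 7 lower in Vehicle than in Sham, against 8.66% and 14.2% of genes tested. After correction the counts were 0 and 3, against 4.02% and 6.96% of genes. In AGNHW over Vehicle 2 were higher and 1 lower, with or without correction, against 4.01% and 2.56% of genes tested. In AGNHW over Sham 0 were higher and 3 lower, against 3.32% and 5.47%. In AGNHW the receptor subunits Gabra2 and Gabrb2 were at 0.260 and 0.315 of Sham, both also lower after correction. Their courses differed: Gabrb2 had the list's largest change in Vehicle over Sham, and Gabra2 in AGNHW over Vehicle. Whether the mice of the libraries differed in substrain was not tested. The Gabra2 value is therefore not read as a result about GABAergic neurons. GABA synthesis, the transmitter machinery of medium spiny neurons, was at 279, 221 and 282 CPM for Gad1 and 124, 101 and 133 CPM for Gad2 in AGNHW, Vehicle and Sham. Of 18 genes induced by activity and dopamine, 0 were higher and 10 lower in Vehicle than in Sham, with a median log2 ratio of -0.72. After correction 12 were lower and the median was -0.78. The shares of all genes lower were 14.2% as measured and 6.96% after correction. Fos, the immediate early factor, had 147, 100 and 280 counts in AGNHW, Vehicle and Sham.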
